A study of Mus musculus with 10 samples.

Results

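Klf3, Klf4, Klf5, Klf6, Elf3, Ehf, Maf, Prdm1 and Nr3c1 encode transcription factors with known roles in the renewal or maturation of the intestinal epithelium. These 9 genes were chosen by name, with earlier results of these data known. Each was found among the 54838 genes listed for every library. All 9 passed the filter on low counts, which 14719 genes passed. The RNA came from jejunal crypts of 5 WT mice and 5 Arid3a cKO mice (VillinCre-ERT2+/-; Arid3a fl/fl), with 1 poly(A) library per animal. Both genotypes had received tamoxifen on 3 consecutive days, and tissue was taken 1 month after the first dose. The Villin promoter limits Cre to the epithelium, so other cells of a crypt preparation keep their Arid3a alleles. The labels do not give the Cre and flox status of the WT mice, nor the age of the mice. Animal numbers carry a different prefix in all WT than in all cKO mice, and the labels do not say what the prefix stands for. Any difference that goes with the prefix cannot be told apart from the difference of genotype.

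Krüppel-like factors (KLF) are zinc finger proteins that bind GC-rich and CACCC-type sequences. In the gut, KLF5 is made by dividing crypt cells and favours growth, whereas KLF4 is made by differentiated villus and goblet cells and restrains it. KLF3 acts mainly as a repressor, and KLF6 is induced in many tissues by injury and stress. MAF is a basic leucine zipper factor that enterocytes switch on as they mature. PRDM1 (BLIMP1) is a repressor that keeps the suckling enterocyte programme in place before weaning and also drives plasma cell maturation. ELF3 and EHF are epithelial ETS factors, and Nr3c1 encodes the glucocorticoid receptor, through which corticosteroids hasten maturation of the infant gut.

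The promoters of Klf3, Klf4, Klf6 and Elf3 are shown because KLF proteins bind GC boxes and ARID3A binds AT-rich DNA. RefSeq windows were at hand for 5 of the 9 genes, each of the 250 bases before the start. The part of each window outside the annotated gene is printed 5′ to 3′ on the strand of the gene, in build GRCm38.p6. Capitals mark the GC box GGGCGG and the AT-rich word ATTAAA, each searched on both strands, so that CCGCCC and TTTAAT are capitals as well. The printed stretches are those of Klf3 (chr5:64803271-64803387, plus strand), Klf4 (chr4:55532476-55532725, minus strand), Klf6 (chr13:5861239-5861481, plus strand) and Elf3 (chr1:135258569-135258722, minus strand), and the bases left off, which lie inside the annotated gene, number 133, 0, 7 and 96.
Klf3: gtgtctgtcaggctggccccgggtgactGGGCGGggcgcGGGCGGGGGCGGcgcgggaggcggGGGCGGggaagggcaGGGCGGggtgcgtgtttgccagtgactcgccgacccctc
Klf4: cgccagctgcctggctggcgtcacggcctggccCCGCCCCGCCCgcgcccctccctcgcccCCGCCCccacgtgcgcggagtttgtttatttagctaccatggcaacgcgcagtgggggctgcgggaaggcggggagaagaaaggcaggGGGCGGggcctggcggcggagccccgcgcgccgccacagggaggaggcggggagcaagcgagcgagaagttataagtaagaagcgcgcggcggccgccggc
Klf6: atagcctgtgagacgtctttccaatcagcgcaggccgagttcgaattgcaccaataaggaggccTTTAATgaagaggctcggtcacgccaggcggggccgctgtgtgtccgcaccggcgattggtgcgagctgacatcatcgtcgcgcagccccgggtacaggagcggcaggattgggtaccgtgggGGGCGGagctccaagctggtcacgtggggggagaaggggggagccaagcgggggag
Elf3: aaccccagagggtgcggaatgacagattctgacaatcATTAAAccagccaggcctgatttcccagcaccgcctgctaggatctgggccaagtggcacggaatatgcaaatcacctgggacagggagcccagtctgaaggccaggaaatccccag

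Over the whole 250 bases, the Klf3 window held 6 GC boxes (the last among the bases left off), the Klf4 window 4, of which 2 share a base, and the Klf6 window 1. Neither the Elf3 window nor that of Prdm1 (chr10:44458749-44458998, minus strand, inside the annotated gene before an internal start) held a GC box. Of 32851 mouse promoter windows of the same length, 32.7% held at least 1. The CACC box CCACCC was found 3 times in the Klf3 window and once in that of Elf3, each time among the bases left off. It was found in 28.1% of all windows. ATTAAA stood once before Klf6 and once before Elf3, and in 12.7% of all windows. TATAAA was in none of the 5 windows and in 12.4% of all. The G and C content was 78.4% before Klf3, 74.0% before Klf4, 64.8% before Klf6, 59.2% before Prdm1 and 57.2% before Elf3, all above the median of 52.4% over all windows.

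The libraries held between 27050455 and 31053622 expected counts. Levels are given as CPM (counts divided by the library's total and set to a common depth) with TMM scaling, which uses the trimmed mean of gene ratios, and as the deposited TPM, which are also divided by transcript length. Arid3a fell from 2.42 ± 0.396 CPM (SD, n = 5) in WT to 0.673 ± 0.350 CPM in cKO libraries, with 55 to 81 counts per WT library and 9 to 31 per cKO library, a log2 fold change of -1.84 (SE 0.32; adjusted p = 0.00204, edgeR's quasi-likelihood test, Benjamini-Hochberg adjusted). The labelled epithelium showed its markers, with Krt8 at 1258 and 1233 TPM, Krt19 at 1498 and 1466 TPM and Lgals4 at 1772 and 1947 TPM on average in WT and cKO libraries. Not all markers were level: of 10 tested, 2 were called higher and 0 lower, against 15.6% and 12.7% of all tested genes. Those 2 were Vil1 and Krt20, with log2 fold changes of 0.80 and 1.47. WT replicates 3 and 4 stood farthest from the cKO libraries, with median correlations of 0.657 and 0.6305 with them, against 0.758 to 0.828 for the other WT libraries. Among themselves the WT libraries had medians of 0.718 to 0.779. WT replicate 2 was closer to the cKO libraries (0.828) than to the other WT libraries (0.774).

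Of the 9 factors, 7 rose in Arid3a cKO crypts and none fell. At an adjusted p below 0.05 in edgeR's quasi-likelihood test, 28.3% of all tested genes were called, 15.6% higher and 12.7% lower. By DESeq2, which called 15.1% of genes higher and 12.7% lower, the counts were also 7 higher and 0 lower. Scaling by library size alone gave 5 higher and 1 lower, against 10.5% and 27.4% of all tested genes. The median log2 fold change of the 9 was 0.47, against -0.03 over all tested genes. The 5 cKO libraries lay wholly above the 5 WT libraries in CPM for 6 of the 9, namely Klf3, Klf4, Klf5, Klf6, Maf and Prdm1, a pattern shown by 12.0% of tested genes, and wholly below for none of the 9, against 7.62%. Because RNA from a whole preparation was measured, more cells that make a factor and more of its RNA per cell cannot be told apart, here and below.

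**Figure D1:**
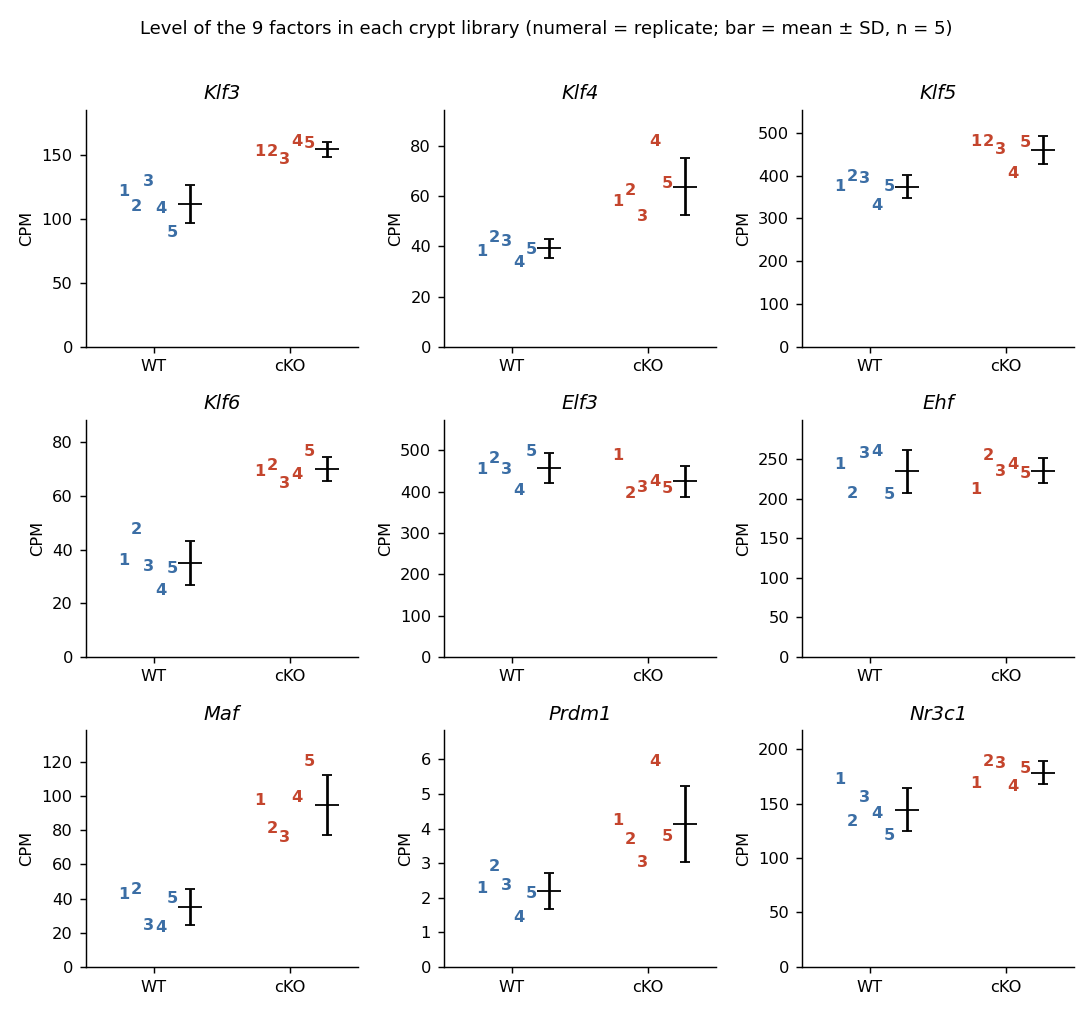
CPM (y axis, linear from 0) of the 9 factors in 5 WT (blue) and 5 cKO (red) crypt libraries, each numeral marking a replicate and the bars the mean ± SD. Maf, Klf6, Klf4, Klf3, Klf5 and Prdm1 had every cKO library above every WT library, whereas the genotypes overlapped for Nr3c1, Elf3 and Ehf.

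Maf showed the largest difference of the 9. The WT libraries held 42.4, 45.3, 24.0, 23.03 and 40.0 CPM of Maf in replicates 1 to 5, and the cKO libraries 97.3, 80.8, 75.9, 99.4 and 120.4 CPM. WT replicates 3 and 4 were the low pair, and even the lowest cKO library exceeded the highest WT library 1.68 times. Maf rose 2.71-fold, from 35.0 ± 10.6 to 94.8 ± 17.6 CPM, a log2 fold change of 1.44 (SE 0.21; 95% interval 0.96 to 1.91; adjusted p = 0.00165, edgeR's quasi-likelihood test, Benjamini-Hochberg adjusted). It ranked 272nd by log2 fold change among tested genes, so that 1.84% of them had a larger value. Without WT replicates 3 and 4, a fit in which 9.77% of tested genes were called higher and 4.45% lower, the log2 fold change of Maf was 1.16, and 5 of the 9 factors were called higher. The gene lies at chr8:115682942-115707794 on the minus strand (GRCm38) and overlaps an antisense gene, Gm15655, with 26.96 to 135 counts per library against at least 688 for Maf.

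The 9 other genes of the small and large MAF, CNC and BACH families that could be tested included 4 that rose and 0 that fell. Of all tested genes, 15.6% were called higher and 12.7% lower. Maff, a small MAF partner without a transactivation domain, rose by a log2 fold change of 0.70 (SE 0.22; adjusted p = 0.0362, edgeR's quasi-likelihood test, Benjamini-Hochberg adjusted). The repressor Bach1 (0.34) and Mafk (0.24), another small MAF, rose as well. The oxidative stress factors Nfe2l2 and Nfe2l1, the most abundant of the family per length, had log2 fold changes of 0.19 and -0.01 and did not pass. Scaled by library size alone, 1 of the 9 was called higher and 1 lower, against 10.5% and 27.4% of all tested genes. The median of 0.19 became 0.06. The fit without WT replicates 3 and 4 called 2 of the 9 higher, against 9.77% of all tested genes. The macrophage markers C1qa, C1qb and C1qc fell by 1.28, 1.46 and 1.51 on the log2 scale, and 0 of 12 myeloid markers rose by edgeR's quasi-likelihood test or DESeq2, with 0 at an unadjusted p below 0.05. Leaving out WT replicates 3 and 4 ended the 3 lower calls, although all 12 markers kept negative log2 fold changes. Their median went from -0.51 to -0.60. That fit called 4.45% of all tested genes lower, against 12.7% in the main fit. The summed myeloid level was 48.3 to 104 TPM in WT and 25.8 to 126 TPM in cKO libraries with the highest in cKO replicate 4. The T cell and intraepithelial lymphocyte markers summed to 114 to 447 TPM in WT and 178 to 479 TPM in cKO libraries, and Cd4 alone of the 12 was called, lower. The part of such cells in the Maf values was not tested.

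Klf6 showed the next largest difference after Maf. Its level was 35.9, 47.6, 33.6, 24.8 and 32.8 CPM in WT replicates 1 to 5 and 69.1, 71.2, 64.5, 68.1 and 76.7 CPM in cKO replicates 1 to 5. The cKO libraries were close together, and WT spread more widely around replicate 2 at the top and replicate 4 at the bottom. Klf6 rose by a log2 fold change of 1.00 (SE 0.14; 95% interval 0.71 to 1.29; adjusted p = 8.33e-04, edgeR's quasi-likelihood test, Benjamini-Hochberg adjusted). The deposited transcript length of Klf6, an average weighted by isoform use, was 2658 to 3496 bases in WT and 3358 to 4005 in cKO libraries. Length enters the TPM, in which the log2 difference was 0.76 by limma on log2(TPM + 0.1). Klf6 lies at chr13:5861482-5870394 on the plus strand.

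Klf4 held 38.2, 43.6, 42.2, 33.7 and 38.7 CPM in the WT libraries. In cKO replicates 1 to 5 it held 57.9, 62.5, 52.1, 82.1 and 65.0 CPM. The groups were apart, with cKO replicate 4 well above the others. Klf4 rose by a log2 fold change of 0.70 (SE 0.11; 95% interval 0.45 to 0.95; adjusted p = 0.00165, edgeR's quasi-likelihood test, Benjamini-Hochberg adjusted), and by 0.60 without cKO replicate 4. That library also had the highest summed stromal and endothelial markers, at 75.7 TPM against 12.4 to 26.6 TPM in the other cKO libraries and 17.6 to 62.3 TPM in WT. Goblet cells make Klf4 as well: the 9 goblet markers summed to 3345 to 5621 TPM in WT and 4218 to 4990 TPM in cKO libraries, and edgeR called 1 of them, Spdef, a factor of goblet and Paneth cells, which fell by 0.47 on the log2 scale. Of all tested genes, edgeR called 12.7% lower. DESeq2 called 1 goblet marker higher and 1 lower, against 15.1% and 12.7% of all tested genes, and library size alone 3 lower, against 27.4%. Klf4 lies at chr4:55527143-55532466 on the minus strand.

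Klf3 was 121, 110, 129, 108 and 89.4 CPM in WT replicates 1 to 5 and 153, 153, 146, 161 and 159 CPM in cKO replicates 1 to 5. The cKO libraries agreed to within 5.67 CPM (SD), and WT replicate 5 was the lowest of all. The rise was 1.38-fold, a log2 fold change of 0.47 (SE 0.09; 95% interval 0.28 to 0.66; adjusted p = 0.00305, edgeR's quasi-likelihood test, Benjamini-Hochberg adjusted). In TPM the genotypes overlapped, at 29.1 to 54.3 in WT and 47.1 to 58.3 in cKO libraries, and Klf3 was not called (log2 difference 0.32, adjusted p = 0.114, limma). Klf3 spans chr5:64803388-64832901 on the plus strand, where Gm20033 and C230096K16Rik overlap it with at most 8.22 and 30.0 counts in a library against at least 2461 for Klf3.

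Klf5 was the most abundant KLF gene of the 4, and its change was the smallest. WT libraries held 374, 397, 393, 329 and 376 CPM, and cKO libraries 479, 481, 461, 404 and 478 CPM. The lowest cKO library, replicate 4, exceeded the highest WT library by a factor of 1.02 only. Klf5 rose by a log2 fold change of 0.30 (SE 0.07; 95% interval 0.14 to 0.46; adjusted p = 0.0112, edgeR's quasi-likelihood test, Benjamini-Hochberg adjusted). Scaled by library size alone the value was 0.17 and did not pass (adjusted p = 0.0545), a scaling that moves the median of all tested genes to -0.16. Klf5 lies at chr14:99298691-99315036 on the plus strand.

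Among the 15 other KLF and SP genes tested, 2 rose and 1 fell, against 15.6% and 12.7% of all tested genes. Their median log2 fold change of 0.05 turned to -0.09 under library size alone. Klf15, a glucocorticoid-induced regulator of amino acid and lipid metabolism, rose from 2.97 to 5.43 CPM (log2 fold change 0.87), and Klf9, another glucocorticoid-induced member, by 0.22. Klf16 fell by 0.59 on the log2 scale. Sp3, Sp1 and Klf13, the most abundant by mean TPM over both genotypes, had log2 fold changes of 0.08, 0.05 and -0.03 and did not pass. Leaving out WT replicates 3 and 4, edgeR's quasi-likelihood test called 0 higher and 1 lower.

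KLF4 and KLF5 have opposed actions on gut epithelial growth, so their ratio was formed in each animal. The log2 ratio of Klf4 to Klf5 TPM was -3.04, -3.03, -3.07, -3.14 and -3.12 in WT replicates 1 to 5. It was -2.88, -2.79, -3.00, -2.15 and -2.72 in cKO replicates 1 to 5. Every cKO animal was above every WT animal, with replicate 4 the farthest and replicate 3 the nearest to WT. The means were -3.08 ± 0.048 and -2.71 ± 0.33, and the difference of 0.37 had a two-sided exact permutation p of 0.00794, the smallest that 5 against 5 animals allow. Without cKO replicate 4 the difference was 0.23, so that this library carried much of its size.

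Prdm1 was scarce. WT libraries held 2.26, 2.89, 2.34, 1.44 and 2.11 CPM of it, and cKO libraries 4.24, 3.68, 3.01, 5.95 and 3.78 CPM. These values rest on 43 to 84 counts in WT and 86 to 175 in cKO libraries, with cKO replicate 4 the highest. Prdm1 rose by a log2 fold change of 0.90 (SE 0.22; 95% interval 0.43 to 1.38; adjusted p = 0.0106, edgeR's quasi-likelihood test, Benjamini-Hochberg adjusted). In TPM the genotypes overlapped, at 0.52 to 0.70 in WT and 0.69 to 1.49 in cKO libraries, and limma did not call it (log2 difference 0.59, adjusted p = 0.0771). Plasma cells make PRDM1 as well. Of 11 tested plasma and B cell markers 6 fell and 0 rose, against 12.7% and 15.6% of all tested genes. Without WT replicates 3 and 4, 3 fell, against 4.45% of all tested genes. The markers summed to 359 to 567 TPM in WT and 117 to 222 TPM in cKO libraries. Jchain fell by 1.95 and Igha by 1.91 on the log2 scale, and the part of plasma cells in the Prdm1 values was not tested. Prdm1 spans chr10:44437177-44528501 on the minus strand.

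Of the 8 other PRDM genes tested, none was called in either direction by edgeR's quasi-likelihood test, against 28.3% of all tested genes. At an unadjusted p below 0.05, 2 were higher and 2 lower. The share of all tested genes at that limit was not counted, so these counts cannot be read as many or few. DESeq2 called 0, against 15.1% of all tested genes higher and 12.7% lower. Library size alone gave 3 lower, against 27.4% of all tested genes. Prdm4 (-0.20), Prdm16 (0.24) and Mecom (-0.14) were the most abundant per length.

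Elf3 and Ehf did not pass the test. Elf3 was 453, 481, 454, 403 and 499 CPM in WT and 489, 395, 411, 425 and 408 CPM in cKO libraries, so that the genotypes overlapped across most of their range. Its log2 fold change was -0.11 (SE 0.08; 95% interval -0.28 to 0.07; adjusted p = 0.337, edgeR's quasi-likelihood test, Benjamini-Hochberg adjusted). Under library size alone Elf3 was called lower, at -0.23 (adjusted p = 0.0268). Ehf was 244, 207, 258, 260 and 205 CPM in WT and 212, 255, 235, 243 and 232 CPM in cKO libraries. The means were nearly equal, with a log2 fold change of 0.00 (SE 0.08; 95% interval -0.18 to 0.19; adjusted p = 0.976, edgeR's quasi-likelihood test, Benjamini-Hochberg adjusted). The upper bounds of both intervals lie below the log2 fold change of Klf4, and smaller changes in either direction remain within them. Elf3 lies at chr1:135253575-135258568, overlapped by the antisense gene Gm26642 with at most 74.4 counts against at least 10730, and Ehf at chr2:103263433-103303278, both on the minus strand.

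In the rest of the ETS family, 0 of 20 tested genes rose and 3 fell, with a median log2 fold change of -0.17. The 3 are 15.0% of the list, near the 12.7% of all tested genes called lower. Spi1 (PU.1), the myeloid and B cell factor, fell by 1.26 on the log2 scale, from 1.74 to 0.72 CPM. Etv4, known as a target of growth factor signalling, fell by 0.65, and Spdef by 0.47. DESeq2 called 4 lower and library size alone 7, against 12.7% and 27.4% of all tested genes. Ets2, Elf1 and Elf2, the most abundant by mean TPM over both genotypes, had log2 fold changes of -0.14, 0.18 and -0.14 and did not pass. The fit without WT replicates 3 and 4 called 1 of the 20 lower, against 4.45% of all tested genes.

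Nr3c1 differed least firmly among the 7 that passed. WT libraries held 172, 134, 155, 141 and 121 CPM, and cKO libraries 168, 189, 187, 166 and 183 CPM. WT replicate 1 lay above cKO replicates 1 and 4, so the genotypes overlapped. The log2 fold change was 0.31 (SE 0.09; 95% interval 0.11 to 0.50; adjusted p = 0.0256, edgeR's quasi-likelihood test, Benjamini-Hochberg adjusted). Leaving out WT replicate 4 or cKO replicate 2, 3 or 5 ended the call, with log2 fold changes of 0.30, 0.28, 0.29 and 0.30, as did the TPM, the effective length and the library size scaling.

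The mineralocorticoid receptor gene Nr3c2, a close relative of Nr3c1, rose from 22.6 to 37.4 CPM (log2 fold change 0.73, SE 0.10, adjusted p = 8.33e-04, edgeR's quasi-likelihood test, Benjamini-Hochberg adjusted). Of the 14 tested steroid receptors, chaperones and cofactors, 2 rose and 1 fell, against 15.6% and 12.7% of all tested genes. Besides Nr3c2, these were the nuclear receptor Esrra (0.45), a regulator of mitochondrial genes, and Fkbp4 (-0.45), a cochaperone of steroid receptors. Without WT replicates 3 and 4, 1 was called higher and 0 lower. The receptor chaperones Hspa8 (-0.35), Hsp90ab1 (-0.33) and Hsp90aa1 (-0.72) did not pass. Of the 17 tested genes known to respond to glucocorticoids, 7 rose and 0 fell, against 15.6% and 12.7% of all tested genes. Their median was 0.19, against -0.03 for all tested genes. Klf9 and Klf15 stand in this list and in that of the KLF and SP genes, and are counted among the genes that rose in each. Pdk4, the kinase that turns off pyruvate dehydrogenase, rose from 2.93 to 20.1 CPM (log2 fold change 2.78), and Sgk1, which also answers to mineralocorticoids, from 11.9 to 59.8 CPM (2.33). Fkbp5, a standard glucocorticoid readout and the second most abundant of the list per length, was at 164 and 169 CPM with a log2 fold change of 0.04 (SE 0.30) and did not pass. Mt2 (0.27) and Glul (-0.23) did not either. Without WT replicates 3 and 4, 2 of the 17 were called higher, against 9.77% of all tested genes.

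**Figure D2:**
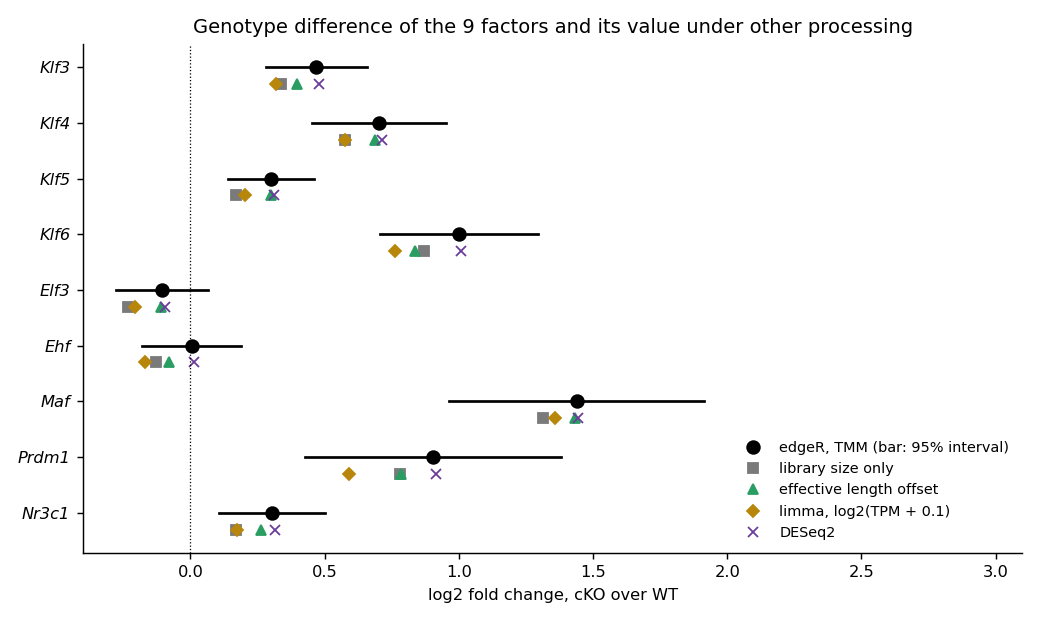
Log2 fold change, cKO over WT (x axis), of each of the 9 factors by edgeR (black points, bars the 95% interval) and, below it, under library size alone, effective length, log2(TPM + 0.1) with limma, and DESeq2. Maf, Klf6 and Klf4 stayed well right of 0 in every fit, whereas Nr3c1 and Klf5 shrank to 0.17 under library size alone.

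Per transcript length, Elf3 was the most abundant of the 9 in both genotypes and Prdm1 the least. The mean TPM in WT was 320 for Elf3, 148 for Klf5, 97.8 for Ehf, 43.6 for Klf3, 34.2 for Nr3c1, 17.6 for Klf4, 14.4 for Klf6, 8.77 for Maf and 0.604 for Prdm1. In cKO it was 279, 171, 85.9, 53.3, 38.0, 26.6, 24.1, 22.4 and 0.986 TPM in the same order. The order of the means was thus the same in both genotypes, but the neighbours Klf4, Klf6 and Maf closed up. In WT, Klf4 was above Klf6, and Klf6 above Maf, in 5 of 5 libraries each, although the ranges of Klf4 and Klf6, and of Klf6 and Maf, overlapped between libraries. In cKO libraries Klf4 was above Klf6 in 2 of 5 and Klf6 above Maf in 3 of 5, so that neither pair of neighbours kept a fixed order. Klf4 was not set against Maf, and levels were not tested between genes. Klf3 and Nr3c1 overlapped in WT only, and all other neighbours were apart. In TPM, 4 of the 9 had every cKO library above every WT library (Klf4, Klf5, Klf6 and Maf), a pattern of 6.74% of tested genes. The same 4 were called by limma, which called 9.96% of genes higher and 19.6% lower, with a median shift of all genes of -0.13.

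The isoform-weighted length was called different for none of the 9 genes by limma on log2 length, which called 0.245% of 11022 genes. Ehf alone passed at an unadjusted p below 0.05, with a log2 difference of 0.08 (adjusted p = 0.3205, limma). The spread between animals of a genotype, as edgeR's biological coefficient of variation, ran from 0.103 for Klf5 to 0.249 for Prdm1, with Maf at 0.235.

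The same animals recurred at the ends of the range within a genotype. WT replicate 4 was the lowest WT library for 6 of the 9 factors (Klf4, Klf5, Klf6, Elf3, Maf and Prdm1) and WT replicate 2 the highest for 5 (the same without Elf3). Among cKO libraries, replicate 3 was the lowest for 5 (Klf3, Klf4, Klf6, Maf and Prdm1), while replicate 4 was the highest for Klf3, Klf4 and Prdm1 and the lowest for Klf5 and Nr3c1. The genes of mature enterocytes followed a like order. Summed over 23 such genes, WT replicates 1 to 5 held 8480, 12100, 5538, 4070 and 6420 TPM, and cKO replicates 1 to 5 held 17380, 15560, 12040, 20600 and 20260 TPM. Replicate 2 was the highest and replicate 4 the lowest in WT, and replicate 3 the lowest in cKO, just under WT replicate 2.

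To set each factor beside this amount of enterocyte RNA, its TPM was divided by that sum, a measure added after the values had been seen. The sum is not made of rising genes alone. Pigr, its most abundant gene in WT, averaged 1690 TPM in WT and 1873 TPM in cKO libraries and was not called. Per 1000 TPM of the 23 genes, Maf stood at 1.27 ± 0.238 in WT and 1.31 ± 0.118 in cKO libraries (SD, n = 5 each), ranging from 0.922 to 1.55 and from 1.18 to 1.47. The mean proportion of Maf to enterocyte genes was thus nearly the same in both genotypes, with overlapping ranges, although at nearly equal sums WT replicate 2 held 11.2 and cKO replicate 3 held 17.7 TPM of Maf. Klf6 went from 2.14 ± 0.662 to 1.44 ± 0.240 and Klf4 from 2.70 ± 0.957 to 1.56 ± 0.207, again with overlapping ranges. Prdm1 went from 0.0916 ± 0.0287 to 0.0572 ± 0.0101. Elf3 went from 49.7 ± 18.2 to 16.8 ± 3.65, and its cKO libraries all lay below the WT libraries on this scale. That held for 1 of the 9 factors, against 52.4% of all genes tested in TPM, and 0 of the 9 lay wholly above, against 0.296%. The denominator itself rose with genotype, so these proportions are a description and were given no test.

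**Figure D3:**
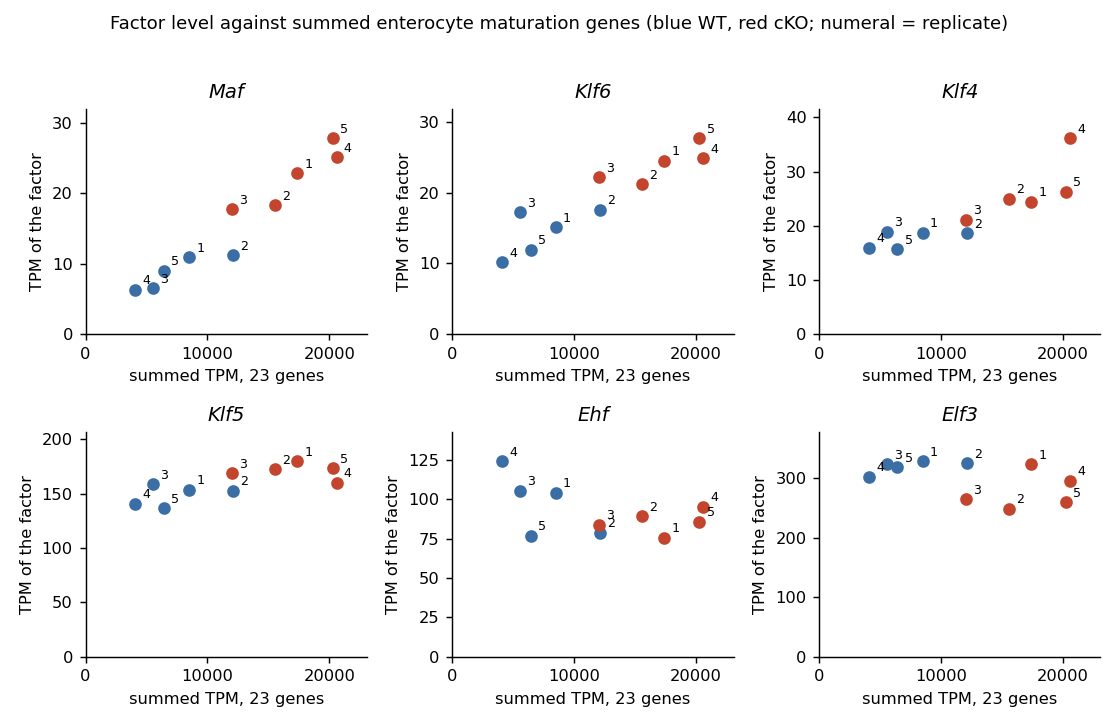
TPM of 6 factors (y axes, linear from 0) against the summed TPM of 23 enterocyte maturation genes (x axes) in each WT (blue) and cKO (red) library. Maf went from 6.31 to 27.8 TPM and was higher in libraries with higher sums, but at nearly equal sums cKO replicate 3 was above WT replicate 2. Ehf and Elf3 were not higher in the libraries with the highest sums.

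The genes that these factors are known to accompany in maturation were read in the same fit. Of the 23 maturation genes, 18 rose and 0 fell, against 15.6% and 12.7% of all tested genes, shares that also stand beside the adult and suckling lists below. The median log2 fold change of the 23 was 1.36. Apoa4, a lipoprotein component, rose from 599 to 2505 CPM (2.06) and the peptide transporter Slc15a1 from 39.5 to 162 CPM (2.03). The fatty acid binding proteins Fabp1 (1.55) and Fabp2 (1.52) rose as well, whereas Pigr (0.25), the carrier of secretory IgA, did not pass. The count of 18 became 15 without WT replicates 3 and 4 and 8 without the filter on low counts. Of the 9 genes of the adult, post-weaning enterocyte, 8 rose, among them the folate transporter Slc46a1 (1.96), trehalase Treh (1.94) and sucrase-isomaltase Sis (1.80). The genes of the suckling enterocyte, which PRDM1 maintains before weaning, were mixed, with 5 of 13 higher, 1 lower and a median of 0.10. Lactase, Lct, stands in both the adult and the suckling list and is counted among the genes that rose in each. Cubn (2.22), the receptor for intrinsic factor, and Lct (1.92) rose, as did Amn (0.53), the partner of Cubn. Ass1, the urea cycle enzyme of the suckling gut, fell by 0.38 on the log2 scale, and Cps1 (-0.23) did not pass. Without WT replicates 3 and 4, none of the 13 was called by edgeR's quasi-likelihood test. That fit called 9.77% of all tested genes higher and 4.45% lower.

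Among 12 tested crypt growth genes linked to KLF5, 0 rose and 5 fell, against 15.6% and 12.7% of all tested genes, with a median of -0.35. The list holds general cell cycle and stem cell genes. Klf5 itself rose, and the part of KLF5 in the values of the 12 was not tested. When WT replicates 3 and 4 were left out, 2 of the 12 were called lower, against 4.45% of all tested genes. Their median was then -0.25. The stem cell factor Ascl2 fell by 0.57, the stem cell marker Olfm4 by 0.50 and cyclin D1 (Ccnd1) by 0.47 on the log2 scale, and Cdk1 and Myc by 0.38 and 0.33. Klf4 and Klf6 are also known to respond early to stress and tissue handling, and 18 immediate early and stress genes were therefore read. Of these 4 rose and 2 fell, against 15.6% and 12.7% of all tested genes, and without WT replicates 3 and 4 the counts were 1 and 1. Zfp36 (0.92) and Fos (0.89) rose about as much as Klf6 on the log2 scale, whereas Egr2 fell by 1.60 and Nr4a1 by 1.16. Hspa1b, a heat shock gene, averaged 103 CPM in WT but 18.3 CPM in cKO libraries without passing the test. The summed level of the list overlapped, at 365 to 547 TPM in WT and 353 to 490 TPM in cKO libraries, and the part of handling in the values of Klf4 and Klf6 was not tested.

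**Figure D4:**
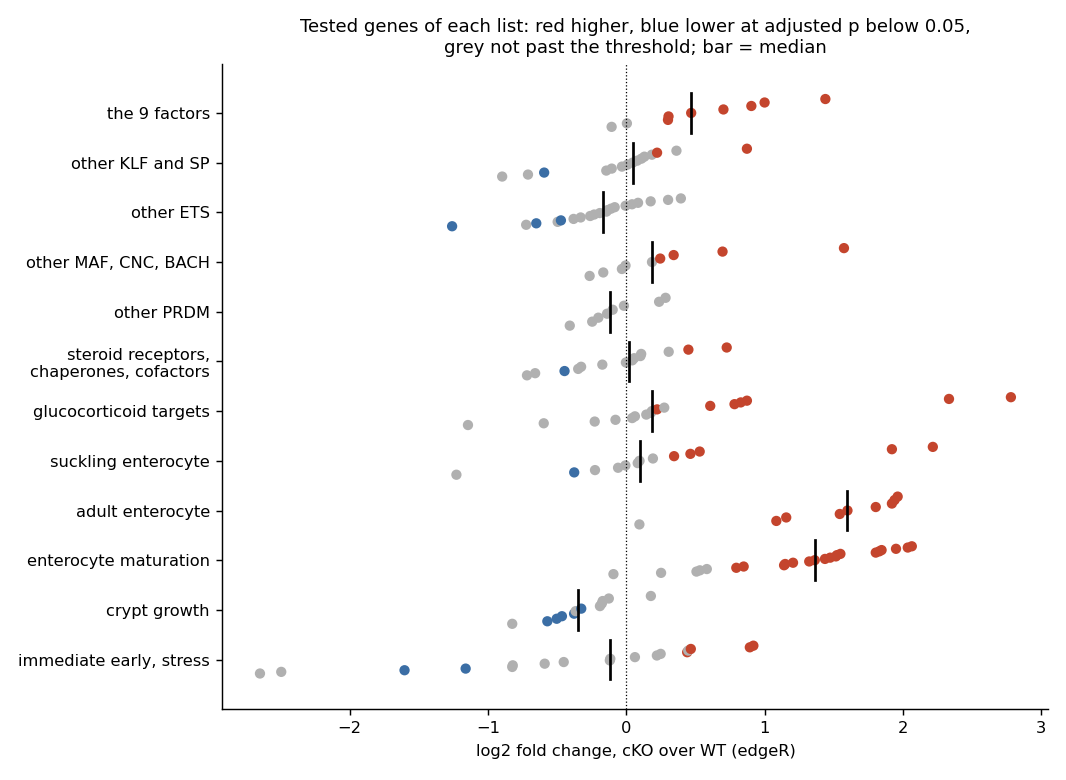
Log2 fold change, cKO over WT, by edgeR (x axis) of each tested gene of the 9 factors and of 11 lists of relatives and pathway genes, red and blue marking genes called higher and lower and the black bar the median. The 9 factors centred at 0.47, and the adult enterocyte and maturation genes at 1.60 and 1.36. The relatives centred at 0.05 (KLF and SP), -0.17 (ETS), 0.19 (MAF, CNC and BACH) and -0.12 (PRDM).

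For each factor, the 3 genes most like it were sought among 12403 others with a mean TPM of at least 1, by the correlation of log2 CPM over the 10 libraries after the genotype means were subtracted. The most like Maf were Trim38 (r = 0.98), G6pc (0.98), the glucose-6-phosphatase, and Glyctk (0.97). Klf6 was most like Bloc1s6 (0.98), the carotenoid oxygenase Bco2 (0.98) and Tfg (0.97), and Klf3 most like Kat6b (0.99), Fam214a (0.99) and Xrn1 (0.97). Klf4 had weaker companions, Tmem175 (0.93), Abhd2 (0.92) and Stab1 (0.91), as did Prdm1 with Nub1 (0.92), Ubxn6 (0.91) and Os9 (0.91). Klf5 was most like CT025731.4 (0.95), Gm9776 (0.91) and Rep15 (0.91). Elf3 was most like Akr1b10 (0.95), Dhrs7 (0.95) and Abhd3 (0.93), Ehf most like Slc7a2 (0.98), Wwp1 (0.97) and Cep290 (0.97), and Nr3c1 most like Cobll1 (0.96), Zdhhc20 (0.95) and Gnpda2 (0.94). These are the highest of many values over few libraries that share depth and cell makeup, and they are given as a description. No gene was listed for more than 1 factor.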

How the data were processed

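RNA-seq libraries of jejunal crypts from 5 WT and 5 Arid3a cKO mice were read from 1 table per library. The authors removed villi by scraping, released crypts with EDTA, prepared poly(A) libraries, aligned reads with STAR to GRCm38 (Ensembl annotation) and estimated expression with RSEM. The deposited expected counts are estimates that split shared reads, and 28.7% of nonzero values were not whole. The deposited TPM and FPKM were computed by the authors from those counts and effective lengths, and FPKM was not used. The deposited isoform-weighted length was used as a readout of isoform use. A strand setting is not given in the sources used here, so reads of overlapping antisense genes may be shared. Identifiers without a symbol (115) held 0.0193% of counts.

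Expected counts were rounded and fitted with edgeR 4.0.16 (filterByExpr with a minimum count of 10, TMM, robust quasi-likelihood test, genotype only), with Benjamini-Hochberg adjustment over 14719 genes at 0.05. TPM was tested with limma 3.58.1 on log2(TPM + 0.1) in genes with at least 0.5 TPM in 5 libraries, which understates changes of low genes. DESeq2 1.42.0, limma-voom and other scalings were alternatives. No replicate pair agreed within sampling noise. The fit was tested on simulated data. It called 51 of 100 genes changed by 0.5 on the log2 scale and 85 of 100 changed by 1. It also called 10 unchanged genes. Changes of about 0.5 can thus be missed. The labels name separate animals, and p-values measure the spread between them. Besides the factors and Arid3a, genes named were, per list, up to 3 with the largest rise and 3 with the largest fall among those called and up to 3 with the highest TPM. Where a list had 5 or fewer called genes the others could be named too, and genes that overlap a factor were added for their position. The 9 factors and the lists were chosen with earlier results of these data known. Coordinates are those of GENCODE for GRCm38 (Ensembl 96), and promoter sequences those of RefSeq. Some genes that this rule selects are not reported here.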

Additional observations from a re-analysis of the deposited data

Results flagged for a closer look

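In each genotype the highest and the lowest library were checked for a gap to the others above Dixon's 95% limit, over the CPM and the isoform-weighted length of the 9 factors. Of 36 groups checked, 4 had such a library, and chance alone gives about 1 in 20. Klf5 in cKO replicate 4 was at 404.4 CPM, against 460.9 to 480.9 CPM in the other cKO libraries. The isoform-weighted length of Klf4 was 2824 bases in WT replicate 1, against 3014 to 3029 bases in the other WT libraries. That of Klf6 was 2658 bases in WT replicate 3, against 3268 to 3496 bases. That of Nr3c1 was 5204 bases in WT replicate 4, against 5650 to 5771 bases. No cause was tested.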

How the results depend on the processing

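Klf4, Klf6 and Maf kept their direction and their call in all 23 alternatives, with log2 fold changes of 0.55 to 0.77, 0.73 to 1.14 and 1.16 to 1.55, and Ehf was called in none. In TPM (pseudocount 0.1, 1, and 0.1 without a filter), 4 of the 9 factors were called higher, Klf3 was at 0.32, 0.31 and 0.32, Prdm1 at 0.59, 0.30 and 0.59 and Nr3c1 at 0.17 each, all without a call, and 1380, 1389 and 1180 genes were higher. With library size alone, Klf5 (0.17) and Nr3c1 (0.17) lost the call, Elf3 (-0.23) was the 1 factor called lower, and 4030 genes were lower. With effective lengths Nr3c1 was at 0.26 without a call. Without WT replicates 3 and 4 together, a fit chosen after the data were seen, Prdm1 (0.77, adjusted p = 0.0518, edgeR) and Nr3c1 (0.33) lost the call, with 1472 genes higher and 670 lower. The cause was not tested for any of these.

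Leaving out 1 library at a time gave log2 fold changes of 0.42 to 0.53 for Klf3, 0.60 to 0.77 for Klf4, 0.26 to 0.35 for Klf5, 0.90 to 1.14 for Klf6, -0.16 to -0.06 for Elf3, -0.04 to 0.04 for Ehf, 1.32 to 1.55 for Maf, 0.74 to 1.02 for Prdm1 and 0.26 to 0.38 for Nr3c1, with 1760 to 2572 genes higher, 1131 (without WT replicate 4) to 2112 lower and 6 to 7 factors called. The difference in the Klf4 to Klf5 log2 ratio ranged from 0.23 to 0.45.

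The replicate numbers did not pair the animals: the correlations of same-numbered deviations were -0.15, -0.03, 0.11, -0.05 and -0.20, and 0 of 5 WT libraries correlated best with their own number. With a replicate block, Nr3c1 was at 0.31 without a call (adjusted p = 0.0521, edgeR), 1188 genes were lower, 12 of the 23 maturation genes were called, and the Klf4 to Klf5 difference of 0.37 had an exact sign-flip p of 0.0625, the smallest that 5 pairs allow. Prdm1, with 43 to 175 counts per library, is the factor that depth limits most.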
